A study of Rattus norvegicus with 32 samples.

Results

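Hox cluster genes encode homeodomain transcription factors that lie in 4 chromosomal clusters, HoxA to HoxD. All genes of the deposited table whose symbol is Hox, a cluster letter a to d and a paralog number were taken, and there were 29 of them among 22587 genes: 7 of cluster A, 9 of B, 6 of C and 7 of D. RefSeq's annotation of the rat assembly GRCr8 names 39 such genes, and the other 10 (Hoxa6, Hoxa9, Hoxa11, Hoxa13, Hoxb13, Hoxc10, Hoxc12, Hoxc13, Hoxd11 and Hoxd12) were not analysed here. The rule used symbols only, not measured values, but it was set with earlier results of these data known.

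Within a cluster, the genes lie in order of their paralog number, and low-numbered genes at the 3′ end are switched on earlier and further forward in the embryo than high-numbered genes at the 5′ end, a rule called collinearity. In the hindbrain, the embryonic source of the pons and medulla, genes of the low paralog groups give each segment its identity, whereas the forebrain, including the hypothalamus, forms in front of the Hox domain. Hox proteins bind DNA together with TALE homeodomain cofactors of the Pbx and Meis families. Retinoic acid induces the 3′ genes, Polycomb complexes hold inactive Hox genes silent, and Trithorax proteins keep active ones on.

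RNA was sequenced from the brainstem and hypothalamus of Wistar Kyoto rats 13 weeks old. The rats had a sham operation or an adrenalectomy (ADREX, removal of the adrenal glands, the source of corticosterone), and were exposed to filtered air or to ozone at 0.8 ppm for 4 hours, after which the tissues were collected at once. Each of the 8 groups (sham air, sham ozone, ADREX air and ADREX ozone, in each tissue) had 4 libraries, which gave 32 in all. Tissue was taken whole, so fewer cells of a type and less RNA per cell cannot be told apart, and no source states which levels of the brainstem a sample held.

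Total reads ran from 6.44 to 12.4 M per library. Values below are the authors' normalized counts, or the whole reads recovered from them. Counts were not corrected for transcript length, so they are compared between libraries of a gene and not between genes. The tissue labels fitted their markers: the summed level of 8 brainstem markers was 4757 to 5967 in brainstem and 47.0 to 187 in hypothalamus libraries, while 13 hypothalamus markers summed to 26.2 to 135 and 3444 to 5264. Cerebellum markers (4 genes, among them Gabra6 of granule cells) summed to between 190 and 1654 in the brainstem libraries and to at most 21.7 in the hypothalamus. In 4 libraries transcripts of the liver exceeded 2000 RPM (reads scaled to a common library total), namely brainstem sham ozone 18 and hypothalamus sham air 2, sham ozone 18 and ADREX air 68. The part of these other tissues in the Hox values was not tested, beyond the leave-outs given below.

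RefSeq's GRCr8 table of promoters (250 bases before to 50 bases after a gene's start) held entries for 14 of the 29 genes, 15 promoters in all. CpG dinucleotides, whose clusters mark promoters that Polycomb complexes can occupy, numbered a median of 22 per 300 bases in these promoters and 7 over all 33469 promoters of that length. Hoxd4 and Hoxd8 are shown because they are neighbours in the table on either side of a drop in the brainstem reads of cluster D, from 507 to 19. The Hoxd4 promoter (chr3:80021636-80021935, plus strand) held 12 CpGs and the Hoxd8 promoter (chr3:80014973-80015272, plus strand) 49. The other cluster D promoters held 30 (Hoxd1, 328 brainstem reads), 19 (Hoxd3, 1631 reads), 27 (Hoxd9, 23 reads), 24 (Hoxd10, 0 reads) and 36 CpGs (Hoxd13, 9 reads). Whether CpG number goes with reads was not tested. In the sequences capitals mark each CpG.
Hoxd4: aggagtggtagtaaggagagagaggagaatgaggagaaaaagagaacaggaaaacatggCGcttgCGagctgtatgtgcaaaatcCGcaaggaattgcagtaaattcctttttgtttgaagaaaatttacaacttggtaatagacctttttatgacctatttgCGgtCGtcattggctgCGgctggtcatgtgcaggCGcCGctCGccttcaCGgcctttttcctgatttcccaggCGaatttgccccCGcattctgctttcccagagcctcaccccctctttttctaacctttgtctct
Hoxd8: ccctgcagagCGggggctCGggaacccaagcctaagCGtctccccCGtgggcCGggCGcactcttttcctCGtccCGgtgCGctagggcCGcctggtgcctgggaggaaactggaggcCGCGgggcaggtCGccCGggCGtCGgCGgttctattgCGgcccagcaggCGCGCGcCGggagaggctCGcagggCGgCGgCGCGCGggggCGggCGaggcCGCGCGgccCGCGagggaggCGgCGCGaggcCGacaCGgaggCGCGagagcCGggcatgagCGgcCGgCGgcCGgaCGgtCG

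The motif TGATNNAT, at which a Hox protein and a Pbx protein bind side by side, was searched on both strands. It was present in 3 of the 15 promoters (20%) and in 9.10% of all promoters. Its matches lay in the promoters of Hoxa2, Hoxb1 and Hoxa7. The first and second of these are shown because they are hindbrain segment genes that differed in reads: Hoxa2 had reads in all 16 brainstem libraries and Hoxb1 at most 3 reads in any. The Hoxa2 promoter lies at chr4:82595643-82595942, minus strand, and the Hoxb1 promoter at chr10:81827665-81827964, plus strand. Capitals mark the match, which in Hoxa2 reads from the opposite strand. A match is a description of the sequence and not evidence of binding. The TATA box letters TATAAA, also on both strands, were in 20% of these promoters and in 14.2% of all.
Hoxa2: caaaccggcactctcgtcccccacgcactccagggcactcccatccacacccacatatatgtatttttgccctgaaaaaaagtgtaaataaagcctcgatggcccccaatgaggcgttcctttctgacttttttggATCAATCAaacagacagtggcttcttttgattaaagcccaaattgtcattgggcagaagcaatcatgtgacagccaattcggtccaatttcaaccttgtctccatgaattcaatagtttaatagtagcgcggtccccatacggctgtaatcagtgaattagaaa
Hoxb1: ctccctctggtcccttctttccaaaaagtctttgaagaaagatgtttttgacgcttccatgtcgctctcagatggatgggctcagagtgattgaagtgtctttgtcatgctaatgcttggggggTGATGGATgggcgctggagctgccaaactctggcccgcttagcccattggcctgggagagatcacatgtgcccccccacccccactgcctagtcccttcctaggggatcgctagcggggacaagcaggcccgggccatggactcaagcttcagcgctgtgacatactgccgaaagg

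Hox transcripts were a feature of the brainstem libraries. With detection defined as at least 1 read in a library, 23 of the 29 genes were detected in some brainstem library and 18 in some hypothalamus library. The tissues differed more in how steadily they were detected: 15 genes had reads in all 16 brainstem libraries and 0 genes in all 16 hypothalamus libraries. Single brainstem libraries held 18 to 22 of the genes (median 19) and single hypothalamus libraries 0 to 12 (median 4.5). At 3 or more reads the counts were 22 and 10 genes, and at 10 or more reads 17 and 0. Summed over libraries, the 29 genes had 19867 reads in the brainstem and 149 in the hypothalamus.

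Of all 15419 genes with reads in all 16 brainstem libraries, 43 (0.279%) were seen in 8 or fewer hypothalamus libraries, and 14 of those 43 were Hox genes. The one exception among the 15 Hox genes was Hoxd1, a paralog group 1 gene, which had reads in 12 hypothalamus libraries. Only brainstem libraries had reads of 7 genes (Hoxa3, Hoxb1, Hoxb6, Hoxb9, Hoxc8, Hoxd8 and Hoxd9). Only hypothalamus libraries had reads of Hoxc11 (2 reads) and Hoxd10 (1 read), which is too few to place them. Hoxa4, Hoxa7, Hoxa10 and Hoxc9 had 0 reads in all 32 libraries. In the GRCr8 annotation Hoxa4 overlaps Hoxa3 and Hoxa3l1, and Hoxa7, Hoxa10 and Hoxc9 overlap no other gene. Hoxa5, which had 2543 brainstem reads, overlaps Hoxa3 and Hoxaas3 there. Overlaps are not limited to cluster A: Hoxc6 overlaps Hoxc4 and Hoxc5, and Hoxb5 and Hoxb6 each overlap Hoxb5os. Hoxb3, Hoxd4 and Hoxc11 also overlap genes that are not Hox cluster genes. The files use another build, and the part of overlap in these values was not tested. The rule by which the authors counted overlapping genes is not stated in the sources.

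**Figure D1:**
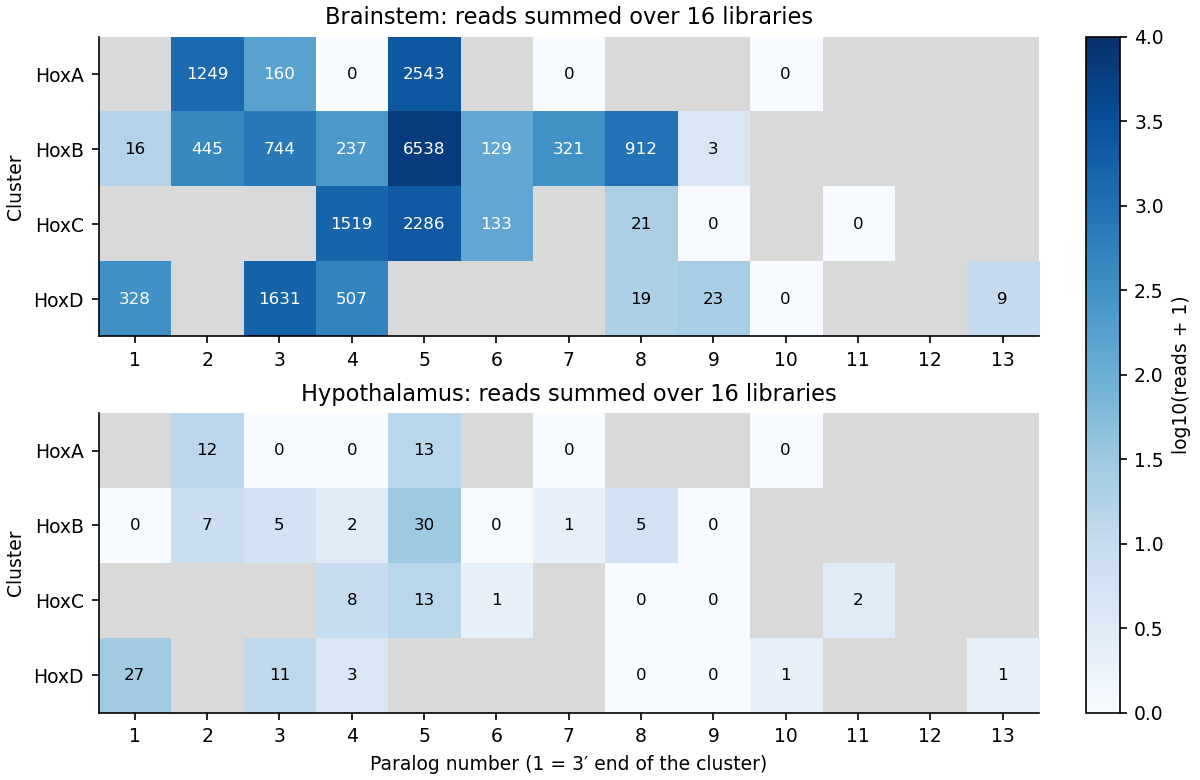
Reads summed over the 16 libraries of each tissue, by cluster (rows) and paralog number (columns), coloured by log10(reads + 1). Grey fields have no gene in the table or show no value, and the high sums lie in paralog groups 1 to 8 of the brainstem panel.

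Brainstem reads were few towards the 5′ ends of the clusters, but they did not fall evenly along them. Paralog groups 1 to 5 held 18297 reads (92.1%), groups 6 to 8 held 1535 (7.73%) and groups 9 to 13 held 35 (0.176%). The first of these shares rests on group 5, which held 11367 reads, 6538 of them of Hoxb5, while groups 1 to 4 together held 34.9%. In the last range, which contains genes known for trunk and limb patterning, 4 of 7 genes had 0 reads, and the highest value in any library was 5 reads, of Hoxd9. These shares also move with transcript length, which was not corrected, so they do not rank the genes by level. Among the 29 genes, the last with 10 or more reads in at least 8 brainstem libraries was Hoxa5 in cluster A, Hoxb8 in B, Hoxc5 in C and Hoxd4 in D. The 10 genes not analysed are Hoxa6, which follows Hoxa5, and genes of groups 9 to 13, so these ends hold for the analysed genes only. Among those genes cluster B reached furthest towards its 5′ end. Hoxb8 supplied 912 of the 952 reads of group 8, and Hoxc8 and Hoxd8 the other 21 and 19. The map of reads by cluster and paralog number shows these last genes. It also shows low sums at the other end: Hoxb1, at the 3′ end of cluster B, had 16 reads, fewer than Hoxb2 to Hoxb8.

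In paralog groups 1 and 2, which pattern the front segments of the hindbrain, Hoxa2 had the steadiest level. Its normalized count in the brainstem was 53.9 at the lowest, 75.5 at the median and 95.5 at the highest of 16 libraries (76.4 ± 12.1, SD). Hoxb2, its paralog, ranged from 12.5 through a median of 25.6 to 60.2, and the highest library was sham air 3. Hoxd1 ranged from 8.60 through 21.8 to 32.2. The lowest brainstem library of each of these 3 genes was above its highest hypothalamus library, which stood at 4.06 for Hoxa2, 2.94 for Hoxb2 and 4.69 for Hoxd1. Hoxb1, the gene of the segment that gives rise to facial motor neurons, had 1 to 3 reads in 9 brainstem libraries and 0 in the others.

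Among groups 3 and 4, whose genes pattern the lower hindbrain, Hoxd3 was as even as Hoxa2. It had 71.6, 105 and 119 normalized counts at the lowest, median and highest brainstem library, with a coefficient of variation of 14.7% where counting error at its mean read number gives 9.90%. Hoxb3 had 33.0, 44.2 and 59.5, Hoxd4 had 14.3, 32 and 45.5, and Hoxb4 had 3.11, 15.8 and 27.0. Each of these 4 genes had reads in all brainstem libraries and its lowest value there exceeded its highest in the hypothalamus. Hoxa3 had 160 reads over all 16 brainstem libraries, 5 to 16 in each, and 0 in the hypothalamus. Hoxc4 had 47.3, 82.6 and 284, and the last value, in ADREX air 65, stood apart from the next highest, 131 in sham air 3. Without ADREX air 65 its coefficient of variation went from 56.0% to 23.2%.

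The group 5 genes act in the lower medulla and at the border to the spinal cord. Their coefficients of variation were 33.5% (Hoxa5), 33.8% (Hoxb5) and 36.1% (Hoxc5). They were below the 42.1% of Hoxb2, the 42% of Hoxb4 and the 56.0% of Hoxc4. They were above the 15.9% of Hoxa2, 14.7% of Hoxd3, 21.2% of Hoxb3 and 26.7% of Hoxd4. Counting error gives 18.96% for Hoxb2 and 25.98% for Hoxb4, and at most 8.37% for the group 5 genes. Without sham ozone 17 the coefficient of Hoxa5 was 19.7%. Hoxb5 ran from 153 through 383 to 749 normalized counts, with the lowest value in ADREX ozone 81 and the highest in sham air 3. Counting error at its mean read number gives a coefficient of variation of 4.95%. Hoxc5 ran from 16.8 through 146 to 283, and these extremes fell in the same pair of libraries. Hoxa5, known for its part in the brainstem circuits of breathing, ran from 0 through 175 to 209. Its 0 was in sham ozone 17, while the other 15 libraries held 121 to 243 reads each. With 0 reads that library allows at most 0.395 RPM, 3 reads of its total, and the lowest of the other libraries had 9.77. Among the 9222 genes with a brainstem mean of 100 or more, 4 had 0 reads in 1 library and 50 or more normalized counts in the other 15. Hoxa5 was among them, and so were Rpl37a in ADREX ozone 84 and Apeg3 and AABR07065619.1 in ADREX ozone 81.

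Beyond group 5, Hoxb7 and Hoxb8, genes of the spinal cord and its upper border, stood alone above 10 normalized counts. Hoxb8 had 28.4, 52.9 and 90.0 at the lowest, median and highest library. Hoxb7 had 1.14, 19.2 and 28.5, and the low value, 1 read, was in ADREX air 65, the library with the high Hoxc4. Hoxb6 and Hoxc6 had reads in every brainstem library, with 129 and 133 in all. The remaining genes detected there were Hoxd9 with 23 reads in 8 libraries, Hoxc8 with 21 in 7, Hoxd8 with 19 in 9, Hoxd13 with 9 in 5 and Hoxb9 with 3 in 2. Of the 13 genes with a brainstem mean of 10 or more, 12 had their lowest brainstem library above their highest hypothalamus library, the exception being Hoxa5. Among all 14408 genes of that brainstem mean, 539 (3.74%) did so. For Hoxb7 these 2 libraries held 1 read each (1.14 and 0.946 normalized counts), so its tissues were apart by the scaling only.

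**Figure D2:**
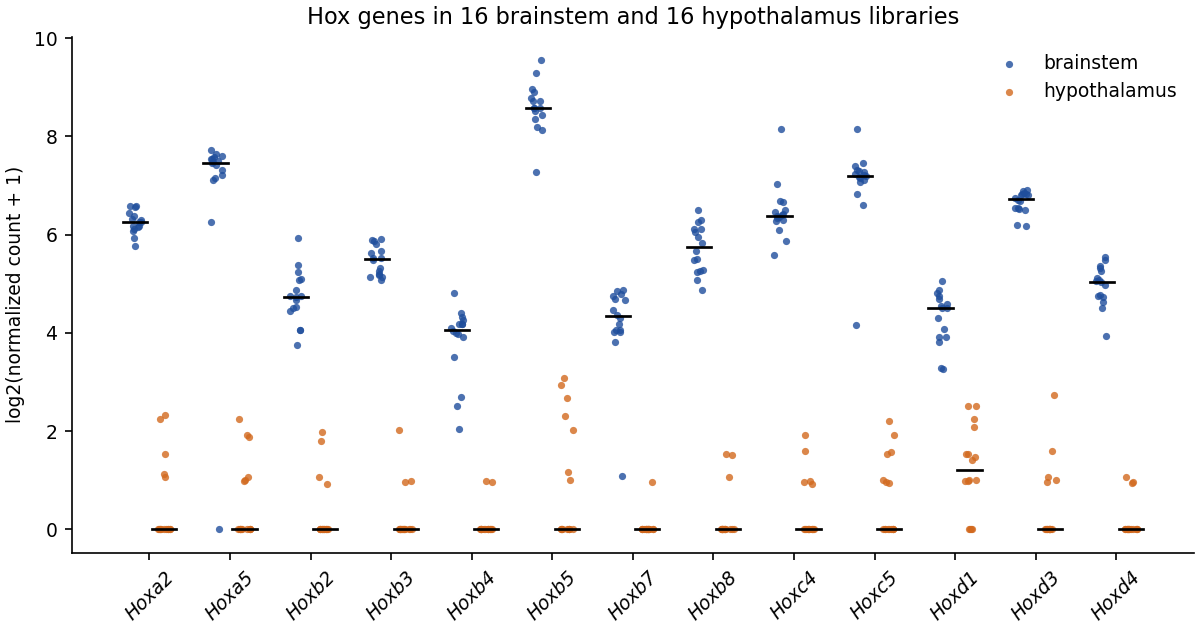
Normalized counts as log2(value + 1) of the 13 Hox genes with a brainstem mean of 10 or more, with a point per library (16 brainstem, 16 hypothalamus) and a black line at each median. The tissues are apart for 12 genes, for Hoxb7 only by the scaling of 1 read, and Hoxa5 has 1 brainstem library at 0.

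The difference between tissues was then tested with limma on log2(normalized count + 1), over all genes with a mean of 10 or more in the 32 libraries. Of the 29 Hox genes, 11 passed this filter, all of them through the brainstem. A gene that passes in this way had to differ, so the count of calls supports nothing by itself: 11 of 11 were called higher in the brainstem at adjusted p under 0.05, where 26.9% of the 14533 genes tested were called higher and 27.1% lower. The log2 differences ran from 3.10 ± 0.22 (SE) for Hoxd1 to 7.65 ± 0.29 for Hoxb5, with a median of 5.74 beside 0.01 over all genes tested, and limma's adjusted p from 2.27e-21 to 1.09e-12. With no filter on low values 25 Hox genes could be tested and 21 were higher in the brainstem, where 19% of all genes tested were. The other 4, Hoxb9, Hoxc11, Hoxd10 and Hoxd13, had at most 10 reads in both tissues together. Nothing in the sources says that libraries came from separate animals, so p-values here measure the spread between libraries.

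RPM values give the size of the difference without the pseudocount. Pooled over libraries, Hoxb5 was 208 times as high in the brainstem (95% interval 145 to 308), Hoxa5 187 times (109 to 351), Hoxc4 181 times (91.7 to 420), Hoxc5 168 times (97.9 to 315), Hoxd3 141 times (78.8 to 284) and Hoxa2 99.3 times (56.6 to 193). These intervals cover counting error only. Of the 11 hypothalamus reads of Hoxd3, 6 were in ADREX ozone 81, and without that library its ratio was 290 (124 to 896). Leaving out any 1 library moved the ratios of the other 5 genes by less than 1.5 times. Hoxd1 had a ratio of 11.6 (7.82 to 17.8). This interval lay below those of Hoxa2, Hoxa5, Hoxb2, Hoxb3, Hoxb5, Hoxb8, Hoxc4, Hoxc5 and Hoxd3. It also lay below those of Hoxb4, Hoxb7, Hoxc6 and Hoxd4, which had 1 to 3 hypothalamus reads each. Leaving out 1 hypothalamus library moved the ratio of Hoxb2 from 60.6 to 99.0, of Hoxb3 from 142 to 333 and of Hoxb8 from 174 to 271. For genes without a hypothalamus read a bound was computed against 3 reads over the tissue, by which Hoxa3 was at least 50.9-fold and Hoxb6 at least 41.0-fold higher in the brainstem.

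In each of the 4 conditions taken alone the tests covered the same 11 genes, which had passed through the brainstem, so their calls again support nothing by themselves. All 11 were called higher in the brainstem in sham air, sham ozone, ADREX air and ADREX ozone, where 15.1%, 13%, 12.7% and 15.4% of all genes were called higher. The lowest log2 difference in a condition was 2.23, in ADREX ozone, and the highest 8.94, in sham air. Hoxa5 in sham ozone was 4.64 with the library at 0 and 6.46 without it. Whether the tissue difference itself changed between conditions was not tested.

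The hypothalamus libraries with the most Hox reads were also those with the most brainstem marker transcripts. The 7 libraries with 0 to 5 Hox reads had brainstem marker sums of 47.0 to 72.8, the 7 with 6 to 19 reads had sums of 60.9 to 145, and those with 25 (sham ozone 17) and 38 reads (ADREX ozone 81) had 177 and 187. Of the 8 markers, Slc6a5 (a glycine transporter), Tph2 (serotonin synthesis) and Slc6a4 (the serotonin transporter) had reads in all 16 hypothalamus libraries. By group, the Hox reads per library were 0 to 3 in sham air, 1 to 25 in sham ozone, 2 to 10 in ADREX air and 6 to 38 in ADREX ozone. No Hox gene passed the filter in the hypothalamus, where the 5 contrasts of ozone and operation thus gave no test. When the 3 hypothalamus libraries with marker sums above 140 were left out, a choice made after seeing the data, 12 Hox genes passed the filter, again through the brainstem, and 12 were called higher there, where 25.2% of all genes tested were. The part of brainstem RNA in these reads was not tested further.

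**Figure D3:**
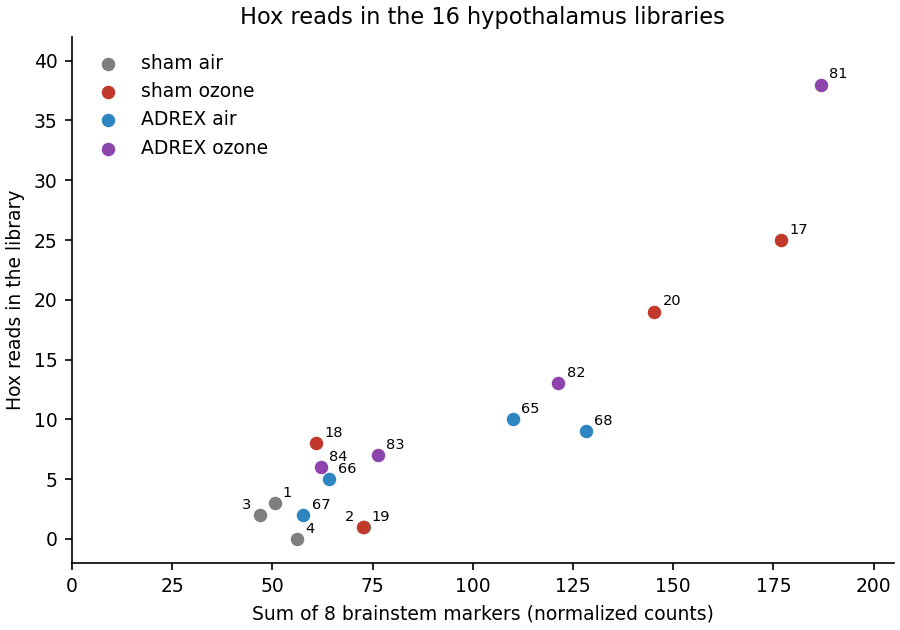
Hox reads (vertical axis, sum over the 29 genes) against the summed normalized counts of 8 brainstem markers (horizontal axis) in the 16 hypothalamus libraries, coloured by group and numbered as in the labels. ADREX ozone 81, with 38 reads and a marker sum of 187, is at the upper right, and the 4 sham air libraries, with 0 to 3 reads, are at the lower left.

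Within the brainstem no Hox gene passed the test for ozone, for adrenalectomy or for their interaction. Each contrast tested 13 Hox genes among 14408. For ozone against air in sham rats, limma called 0 of 13 (0.979% of all genes), edgeR and DESeq2 on recovered reads also 0, and 0 had an unadjusted p under 0.05. Their log2 changes had a median of -0.31 beside -0.00259 over all genes tested, and 11 of 13 were negative. The most negative was Hoxa5 at -2.11 (95% interval -4.46 to 0.24, limma adjusted p = 0.755), and without sham ozone 17 it was -0.29. Its values were 209, 190, 185 and 174 in sham air and 0, 176, 141 and 148 in sham ozone. Hoxd3 and Hoxa2, the steadiest genes, had narrow intervals: -0.12 (-0.48 to 0.25) and -0.16 (-0.49 to 0.18). Negative changes were as many, 11 of 13, for ozone against air in ADREX rats (median -0.18). They were 10 of 13 for ADREX against sham in air (median -0.18) and 7 of 13 in ozone (median -0.03). Genes are not replicates, so these counts get no test.

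Hoxb5, the Hox gene with the most reads, Hoxc5 and Hoxa2 each overlapped between all 4 brainstem groups. Hoxb5 stood at 423, 383, 749 and 475 normalized counts in sham air, 280, 501, 345 and 423 in sham ozone, 622, 326, 383 and 381 in ADREX air and 153, 438, 365 and 292 in ADREX ozone. Hoxc5 stood at 134, 154, 283 and 174, then 141, 149, 145 and 143, then 159, 147, 168 and 96.3, and then 16.8, 156, 113 and 137, in the same order of groups. For both genes sham air 3 was the highest library and ADREX ozone 81 the lowest. Hoxa2 kept to 53.9 to 95.4 in sham air, 60.2 to 71.2 in sham ozone, 70.5 to 95.5 in ADREX air and 71.0 to 81.8 in ADREX ozone.

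In ADREX rats ozone against air gave 0 calls by limma of 13 genes (0% of all genes), 0 by edgeR and by DESeq2, with 0, 1 and 1 at an unadjusted p under 0.05. Hoxb7 had the highest log2 change, 1.07 (-0.03 to 2.18, limma adjusted p = 0.801), and 0.33 without ADREX air 65. Hoxc5 had the lowest, -0.79, and -0.06 without ADREX ozone 81. Hoxb4 went from -0.39 to 0.16 without that library.

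For ADREX against sham in air, 0 of 13 Hox genes were called by limma (0% of all genes), edgeR or DESeq2, and each tool gave 2 at an unadjusted p under 0.05, which 3.78% of all genes had in limma. In limma these were the genes furthest towards the 5′ end of cluster B that were tested, Hoxb7 and Hoxb8, both of which had an adjusted p of 0.9998. Hoxb8 stood at 49.5, 56.2, 68.5 and 67.9 in sham air and 37.5, 38.1, 28.4 and 44.4 in ADREX air, so that these groups did not overlap, and its log2 change was -0.70 (-1.27 to -0.12). It was the only 1 of the 13 genes whose groups did not overlap here, and 475 of all 14408 genes (3.30%) had such groups, in either direction. Hoxb7 stood at 25.9, 15.6, 28 and 26.8 against 1.14, 15.7, 17 and 15.2, with some overlap, and its log2 change of -1.28 was -0.53 without ADREX air 65.

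For ADREX against sham in ozone limma, edgeR and DESeq2 again called 0 of 13 (2.44% of all genes in limma), with 0 at an unadjusted p under 0.05 by each. Hoxa5 was 1.74 with sham ozone 17 and -0.08 without it. Hoxc5 was -0.83 with ADREX ozone 81 and -0.10 without it. With no filter on low values Hoxd9, a group 9 gene, was called lower in ADREX (log2 change -2.01, limma adjusted p = 0.0473, 1.34% of all genes called). It had 3, 5, 5 and 2 reads in sham ozone and 1, 0, 0 and 0 in ADREX ozone, and in air 2, 0, 0 and 3 reads in sham and 2, 0, 0 and 0 in ADREX. The interaction of ozone and operation had 0 calls of 13 by each tool, where limma called 0.201% of all genes, and 0 at an unadjusted p under 0.05. The 4 pairwise contrasts share groups, so they are not independent of each other.

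**Figure D4:**
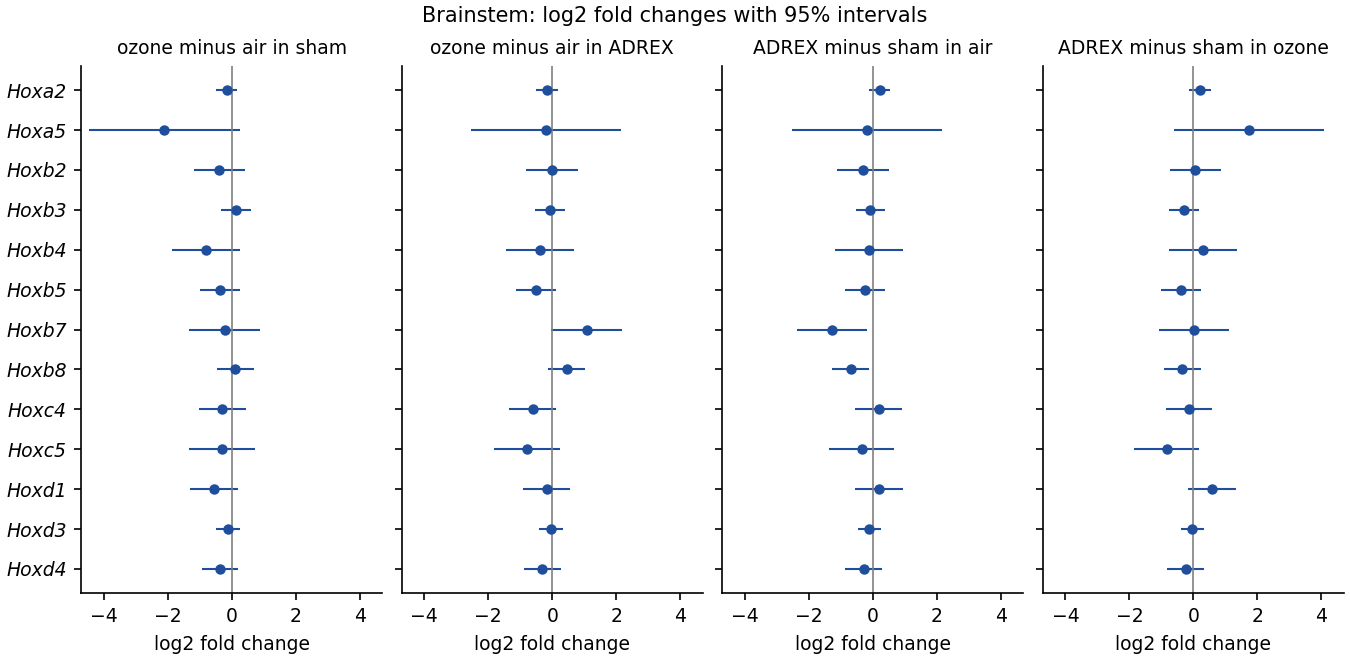
Log2 fold change (points) with 95% interval from limma (lines) of the 13 tested Hox genes in the brainstem, for ozone minus air in sham and ADREX rats and ADREX minus sham in air and ozone. Hoxa5 has the widest intervals, and the intervals of Hoxb7 and Hoxb8 for ADREX minus sham in air lie below 0 before adjustment.

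The 4 brainstem groups overlapped in their total Hox level. The normalized counts of the 29 genes summed to 1449 ± 293 (SD, n = 4) in sham air, 1150 ± 233 in sham ozone, 1283 ± 233 in ADREX air and 1054 ± 280 in ADREX ozone, and these sums get no test because Hoxb5 weighs most in them. The 2 lowest sums were 652 in ADREX ozone 81 and 838 in sham ozone 17. In these libraries groups 1 to 4 supplied 47.7% and 42.6% of the Hox reads, against 29.5% to 39.3% in the other 14. Without Hoxb5 the percentages were 62.3% and 64.0%, and that of ADREX air 65 was 63.6%, so these libraries then no longer stood apart together. In ADREX ozone 81, 6 of the 13 genes with a brainstem mean of 10 or more were at their lowest of 16 libraries: Hoxb4 (3.11), Hoxb5 (153), Hoxc4 (47.3), Hoxc5 (16.8), Hoxd3 (71.6) and Hoxd4 (14.3). The share of all genes at their lowest in that library was not counted, so whether these low values are particular to Hox genes was not tested. Hoxa5 (75.4) and Hoxb2 (15.6) were at their second lowest, while Hoxa2 at 71.0, Hoxb3 at 57.9 and Hoxb8 at 61.0 were inside the range of the other libraries. The summed normalized counts of the TALE cofactors were also lowest in that library, 2663 against 3675 to 4746 in the other 15. The sum of the retinoic acid and hindbrain regulators of Hox genes, a list described below, was instead highest there. It stood at 2943.5, beside a median of 2199 over the brainstem libraries. That library also had the most reads of all, 12.4 M. Brainstem marker sums were 5029 in ADREX ozone 81 and 5967 in sham ozone 17, the latter being the highest of all 16, and cerebellum marker sums were 1272 and 842. The hypothalamus libraries that carry the same numbers, 81 and 17, had the highest Hox reads of their tissue, and whether the same number means the same rat is not stated.

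**Figure D5:**
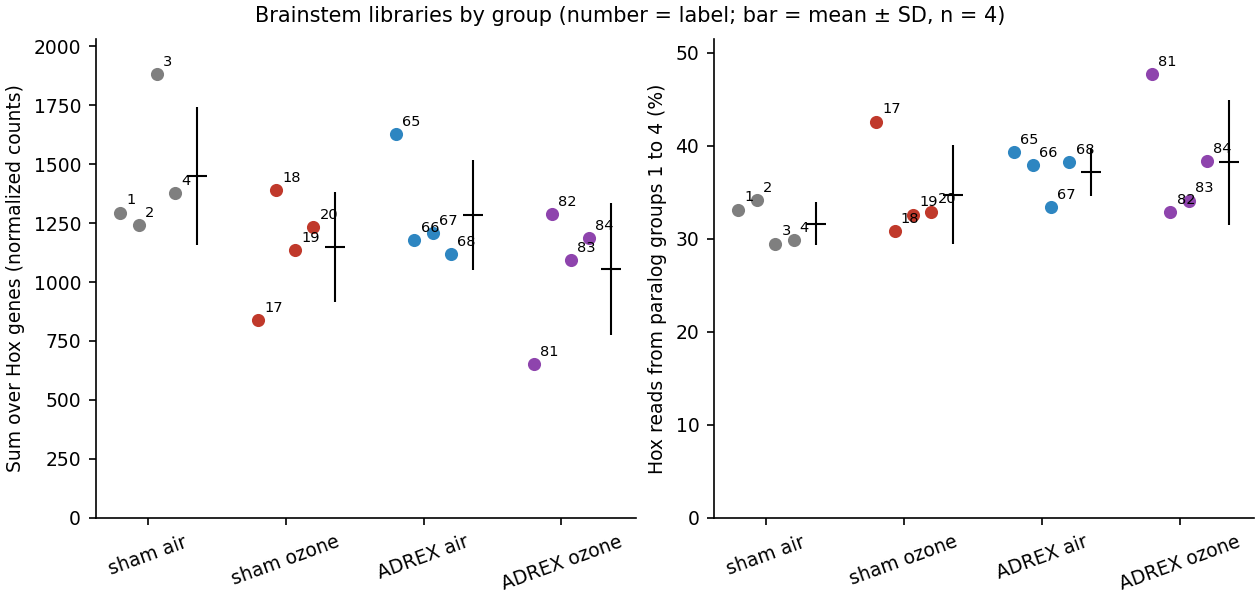
Left, summed normalized counts of the 29 Hox genes; right, percent of Hox reads from paralog groups 1 to 4; a point per brainstem library, numbered as in the labels, with the mean ± SD of each group (n = 4) beside it. ADREX ozone 81 and sham ozone 17 have the lowest sums, 652 and 838, and the highest percentages, 47.7% and 42.6%. Both values of sham ozone 17 include its 0 reads of Hoxa5.

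Hox cofactors split by family member between the tissues. Of 9 TALE genes tested, 4 were higher and 4 lower in the brainstem, with a median log2 difference of -0.20. The counts of this list and of the next 3 are to be read against the 26.9% of all genes called higher and the 27.1% called lower. Among the 4 higher genes, Meis2 was 2.08 ± 0.08 (SE) higher on the log2 scale, Pbx3 1.88 ± 0.08 and Meis1 1.82 ± 0.08. Their limma adjusted p ran from 2.55e-19 for Meis2 to 4.73e-18 for Meis1. Meis2 averaged 1024 normalized counts in the brainstem and 244 in the hypothalamus.

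Of 12 tested genes that make, degrade or receive retinoic acid or regulate Hox genes in the hindbrain, 6 were higher and 1 lower in the brainstem (median 0.14). Cyp26b1, which degrades retinoic acid, had the largest of these differences, 4.07 ± 0.13, with 608 ± 148 normalized counts (SD, n = 16) in the brainstem and 36.1 ± 12.1 in the hypothalamus. Aldh1a1, a retinaldehyde dehydrogenase, was 2.0 ± 0.13 higher, and the difference of Rxrg, a retinoid X receptor, was -1.43 ± 0.13. Polycomb and Trithorax genes differed little in size: of 21 tested, 4 were higher and 10 lower, with a median of -0.11. The 4 with the smallest p were Kmt2b (-0.45), Kdm6b (-0.56), Ezh1 (0.18) and Rnf2 (-0.47).

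Of 12 tested genes that flank the Hox clusters, 6 were higher and 2 lower in the brainstem, with a median of 0.15. Evx1, a homeobox gene at the 5′ end of cluster A that marks V0 interneurons of the hindbrain and spinal cord, was 4.99 ± 0.19 higher and had 36.8 ± 8.30 normalized counts in the brainstem, 0.24 ± 0.56 in the hypothalamus. It lies beyond Hoxa7 and Hoxa10, which had 0 reads. The other 3 with the smallest p, Skap2 (0.96), Tax1bp1 (0.34) and Hibadh (0.22), lie on either side of cluster A and were detected in both tissues. None of the genes tested in these 4 lists passed the test in the 5 brainstem contrasts of ozone and operation in limma. The retinoic acid receptor genes Rara (-0.58, limma adjusted p = 0.558, ADREX against sham in air) and Rarb (-0.47, limma adjusted p = 0.238, ozone against air in sham) had the smallest unadjusted p in these lists.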

How the data were processed

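Brainstem and hypothalamus RNA of 32 libraries was sequenced as mRNA libraries, per the labels' protocols. The authors deposited a table of signal values, namely normalized read counts of 22587 genes. Partek, DESeq2 and the rat build rn6 are named without roles, per the submitters' processing notes. No source used here names the aligner, the annotation or the use of strand, so overlapping and antisense genes are uncertain. Each column held multiples of 1 step (0.623 to 1.25), and after division by the step 100% of the values lay within 0.001 of a whole read. Libraries summed to 6.44 to 12.4 M recovered reads.

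Groups came from the labels. limma 3.58.1 (R 4.3.3) was run on log2(value + 1), which understates changes of low genes, for genes with a mean of 10 or more in the fit: 32 libraries and 8 group means for the tissue contrasts, 16 libraries and 4 group means within a tissue. The prior variance depended on the mean. p-values were adjusted by Benjamini-Hochberg over all genes of a contrast, and an adjusted p under 0.05 was a call. edgeR 4.0.16 (quasi-likelihood test) and DESeq2 1.42.0 on recovered reads were alternatives. For the mean tissue contrast limma called 7850 genes, edgeR 7880 and DESeq2 7935. Ratios of pooled reads have exact 95% binomial intervals.

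Hox genes with a mean of 10 or more in a tissue were named with values, the others with their reads, and of each other list the 4 genes with the smallest p; some of these genes are not reported here. Members and lists were chosen with earlier results of these data known. Levels per kilobase were left out, since the only gene table in hand is of another build (GRCr8), which served names, neighbours and promoter sequences.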

Additional observations from a re-analysis of the deposited data

Results flagged for a closer look

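In 3 of the 52 sets of 4 brainstem libraries looked at (13 Hox genes in 4 groups), 1 library lay far from the other 3, where chance gives about 1 in 20. Hoxc4 was 284 in brainstem ADREX air 65 and 67.1 to 90.3 in the other 3 libraries. Hoxb7 was 1.14 in the same library and 15.2 to 17 in the others. Hoxb3 was 57.9 in brainstem ADREX ozone 81 and 34.2 to 35.9 in the others.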

How the results depend on the processing

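Leaving out any library gave 11 to 12 Hox genes higher in the brainstem, for the mean over conditions and for each condition, and 0 calls in every brainstem contrast of ozone and operation. The filter on low values decided how many could be called. With no filter 21 genes were called for the mean, 19 in sham air, 19 in sham ozone, 18 in ADREX air and 17 in ADREX ozone (19%, 9.84%, 8.49%, 8.26% and 10.1% of all genes), and 1 (Hoxd9) for ADREX against sham in ozone in the brainstem. With a mean of 50 or more required, 4 genes were tested and 4 called, for the mean (28.2% of all genes) and for each condition (14.2% to 17%). In the hypothalamus 18 genes were detected at 1 read, 10 at 3 reads and 0 at 10 reads. The median share of Hox reads from paralog groups 1 to 4 in brainstem libraries was 33.7% and 49.9% without Hoxb5.

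The other settings (pseudocounts of 0.5 and 5, rescaling, edgeR, DESeq2, leaving out libraries rich in liver or brainstem transcripts, brainstem ADREX ozone 81) changed no call of a gene tested in both. With replicate number as a block, 11 genes were called (26% of all genes for the mean). The labels do not say whether a number means the same rat in both tissues. The correlations of same-numbered libraries across tissues ran from -0.53 to 0.61 (median 0.03), 7 of 16 were over 0.1, and 4 of 16 libraries correlated best with their own number. Red blood cell marker sums, however, were high or low together in several same-numbered libraries (brainstem 5245 and hypothalamus 4086 in 17, 101 and 86.3 in 83), and whether the numbers pair the samples is not settled here. The comparison of genes per kilobase, and its version scaled by library totals, was not run, since no gene lengths of the files' build are used here. Genes with under 10 reads in a tissue are limited by depth.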
